A study of Mus musculus with 30 samples.

Results

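The comparison described here set 3 libraries of Ticam2-/- macrophages (KO) against 3 libraries of wild-type macrophages (WT), all collected after 6 h with lipopolysaccharide (LPS) at 10 ng/mL, over every gene of the deposited count table. These 6 of the 30 libraries in the study were chosen by their labels alone, and 15119 of 32361 gene IDs had enough counts to be tested. The cells were bone marrow-derived macrophages of C57BL/6J mice, grown for days in medium with L929 cell supernatant as a source of macrophage colony-stimulating factor (M-CSF), and all groups, treated or not, shared this culture. Each library held cells of 1 animal, from 3 WT and 3 KO animals, and the labels name no Cre or tissue-specific promoter behind the KO. The labels give no age or sex and do not say which part of Ticam2 was removed. Any other difference in genetic background between the WT and KO animals cannot be told apart from the loss of Ticam2. Untreated macrophages of both genotypes and macrophages given lipoteichoic acid (LTA) at 100 ng/mL for 6 h, with 3 libraries in each of these 4 groups, served as the reference for how far the genotype difference depended on LPS.

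Ticam2 encodes TRAM, a membrane-bound adaptor. When LPS is passed by CD14 to Toll-like receptor 4 (TLR4) and MD-2, the receptor at the cell surface recruits the adaptors TIRAP and MyD88, which lead to NF-kB and MAP kinase activation. The receptor is then taken into endosomes, where TRAM recruits TRIF. TRIF leads to phosphorylation of IRF3, transcription of interferon beta and a few chemokines, and then, through the interferon receptor and STAT factors with IRF9, of many interferon-stimulated genes. TRIF also feeds into NF-kB. LTA, a cell wall component of Gram-positive bacteria, is sensed through TLR2.

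The sequences of 6 promoters, of genes fixed by name, were searched for the 2 kinds of element that these pathways use. Their genes span the range of differences described below, from among the largest falls in KO to nearly equal. Each run starts 250 bases before the RefSeq start site (build GRCm38.p6) and ends 10 bases into the transcript. Capitals mark matches, on either strand, to the core of the interferon-stimulated response element (ISRE core, GAAANNGAA), to which IRF factors bind, or to the kB element bound by NF-kB. Cxcl10 (chr5:92348880-92349139, minus strand) encodes a T cell-attracting chemokine, Ifit1 (chr19:34640639-34640898, plus strand) a sensor of viral RNA caps, Rsad2 (chr12:26456443-26456702, minus strand) the antiviral enzyme viperin, Il6 (chr5:30012864-30013123, plus strand) the cytokine interleukin 6, Cxcl2 (chr5:90903649-90903908, plus strand) a neutrophil-attracting chemokine and Tnf (chr17:35201998-35202257, minus strand) tumour necrosis factor.
Cxcl10: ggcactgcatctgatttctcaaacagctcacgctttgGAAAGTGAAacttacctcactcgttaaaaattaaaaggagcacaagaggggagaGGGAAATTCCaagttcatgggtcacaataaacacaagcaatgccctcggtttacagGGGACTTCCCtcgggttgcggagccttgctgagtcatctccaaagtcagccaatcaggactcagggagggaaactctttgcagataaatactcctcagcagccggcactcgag
Ifit1: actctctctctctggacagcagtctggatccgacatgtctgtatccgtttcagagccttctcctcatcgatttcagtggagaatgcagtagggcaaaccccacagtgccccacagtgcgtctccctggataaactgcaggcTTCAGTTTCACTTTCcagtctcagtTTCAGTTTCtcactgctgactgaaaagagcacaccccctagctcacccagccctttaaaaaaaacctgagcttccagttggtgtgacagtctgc
Rsad2: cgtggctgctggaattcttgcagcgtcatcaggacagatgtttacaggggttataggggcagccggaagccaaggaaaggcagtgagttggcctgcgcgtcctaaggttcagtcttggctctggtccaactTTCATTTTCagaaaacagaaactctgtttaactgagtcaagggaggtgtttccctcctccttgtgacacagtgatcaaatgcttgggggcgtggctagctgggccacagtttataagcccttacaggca
Il6: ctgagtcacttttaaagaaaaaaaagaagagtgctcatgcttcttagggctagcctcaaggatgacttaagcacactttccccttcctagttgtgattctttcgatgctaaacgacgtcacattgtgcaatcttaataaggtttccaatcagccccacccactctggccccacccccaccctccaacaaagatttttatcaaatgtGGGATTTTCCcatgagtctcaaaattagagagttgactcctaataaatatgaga
Cxcl2: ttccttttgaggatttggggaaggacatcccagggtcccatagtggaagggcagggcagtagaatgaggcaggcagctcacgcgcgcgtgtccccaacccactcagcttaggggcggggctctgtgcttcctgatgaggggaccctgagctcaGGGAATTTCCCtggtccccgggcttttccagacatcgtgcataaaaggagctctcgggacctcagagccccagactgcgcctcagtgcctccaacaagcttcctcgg
Tnf: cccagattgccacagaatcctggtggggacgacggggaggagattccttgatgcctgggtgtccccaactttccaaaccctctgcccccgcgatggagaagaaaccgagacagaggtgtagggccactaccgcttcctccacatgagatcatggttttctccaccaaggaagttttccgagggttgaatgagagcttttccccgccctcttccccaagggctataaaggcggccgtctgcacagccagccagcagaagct
The Cxcl10 window held 1 ISRE core match, from base -213 to -205, and 2 kB matches, from -159 to -150 and from -103 to -94. The Ifit1 window held 3 ISRE core matches between bases -109 and -76, the first 2 of them overlapping, and no kB match. The Rsad2 window held 1 ISRE core match from -119 to -111. The Il6 window held 1 kB match from -44 to -35 and the Cxcl2 window a pair of overlapping kB matches from -97 to -87, and neither held an ISRE core match. The Tnf window matched neither pattern. Of the 12543 promoters of tested genes in the table, 7.54% held an ISRE core match and 5.25% a kB match, over the whole 300-base windows. The table matched 9803 of 15107 tested symbols, so these shares describe the matched genes. For genes at least 4-fold lower or higher in KO it matched 292 of 473 and 341 of 480, under 80%, and a check of motif shares in those sets is void. Among lists of genes used below, 6 of the 14 promoters of IRF3 targets (42.9%) held an ISRE core match, and 12 of the 22 promoters of NF-kB subunits and inhibitors (54.5%) held a kB match. These matches are letters in a window, with no measurement of binding.

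Ticam2 itself was read first in each library as a check of the labels. It had 20.5, 22.7 and 22.1 CPM in WT and 2.14, 1.51 and 1.05 CPM in KO. All 3 KO libraries were far below all 3 WT libraries (-3.80 ± 0.16 by TMM and -3.28 by total counts, here and below log2 fold changes of KO against WT ± standard error, n = 3 per group). The 6 libraries held 11553272 to 13521660 counts, so 3 counts, the most that a count of 0 allows by counting error, equal 0.338 to 0.366 CPM in WT and 0.225 to 0.247 CPM in KO. CPM is counts per 1000000 counts of the library, here after scaling by TMM unless the library total is named. TMM sets the scale so that the bulk of genes do not differ, and total counts set it so that every library sums to the same total. The defining macrophage genes Adgre1, Csf1r, Cd68, Lyz2 and Itgam were present in all libraries, and the 10 macrophage markers summed to 21110 to 22488 CPM of the library total in WT and 27902 to 29225 in KO. Lyz2 alone made up most of these sums, at 1.23% ± 0.063 of WT counts and 2.03% ± 0.081 of KO counts (SD, n = 3). By TMM 7 of these 10 markers were called lower in KO and 3 higher. Of 8 markers of erythroid cells and megakaryocytes, 7 were tested. With the eighth they summed to 6227 to 8039 CPM of the library total in WT and 6037 to 7509 in KO, ranges that overlap on this scale. By TMM 6 of the 7 were called lower in KO, the haemoglobin genes Hbb-bt, Hbb-bs, Hba-a2 and Hba-a1 each by -0.64 and not called by total counts, and 1 higher. The 7 of 8 neutrophil markers in the table summed to 20.4 to 21.03 CPM of the library total in WT and 11.99 to 14.3 in KO, with Elane and Ly6g at 0 in all 6 libraries. On the same scale the 8 fibroblast and stromal markers summed to 40.9 to 44.3 in WT and 10.97 to 13.3 in KO. Markers of few counts for other cells went both ways by TMM. Lck of T cells (-2.57), Ccr9 of dendritic cells (-1.32) and Apoa1 of hepatocytes (-3.02) were lower. Kit of mast cells (1.05) was higher, as was 1 of the 2 tested markers of B and plasma cells. The hepatocyte marker sums overlapped, at 21.9 to 28.7 CPM of the library total in WT and 20.2 to 26.2 in KO. The part of these cells in the results was not tested. In these bulk samples fewer cells of a type and less RNA per cell cannot be told apart.

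After 6 h with LPS, genotype separated most of the transcriptome, and which genes stood lower or higher depended in part on the scale. By TMM, 9576 of 15119 genes (63.3%) were called, meaning an adjusted p under 0.05 in edgeR's quasi-likelihood test, 4625 lower in KO (30.6%) and 4951 higher (32.7%). By total counts 11460 genes (75.8%) were called, 2192 lower (14.5%) and 9268 higher (61.3%). All 2192 genes lower by total counts were also lower by TMM, and all 4951 genes higher by TMM were also higher by total counts. A further 1002 genes (6.63%) were lower by TMM and higher by total counts, and 1431 (9.46%) were lower by TMM and not called by total counts. The counts of list members given below stand against these shares of all genes. The groups of 3 did not overlap in 9881 genes (65.4%) by TMM. The median gene lay 0.52 higher on the log2 scale by total counts than by TMM, so that changes are given below by TMM with the total-count value or count beside them wherever the call or the sign differed. A gene given below with a single value kept its call and its sign by total counts, apart from Csf2, Tnf and Zc3h12d.

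**Figure D1:**
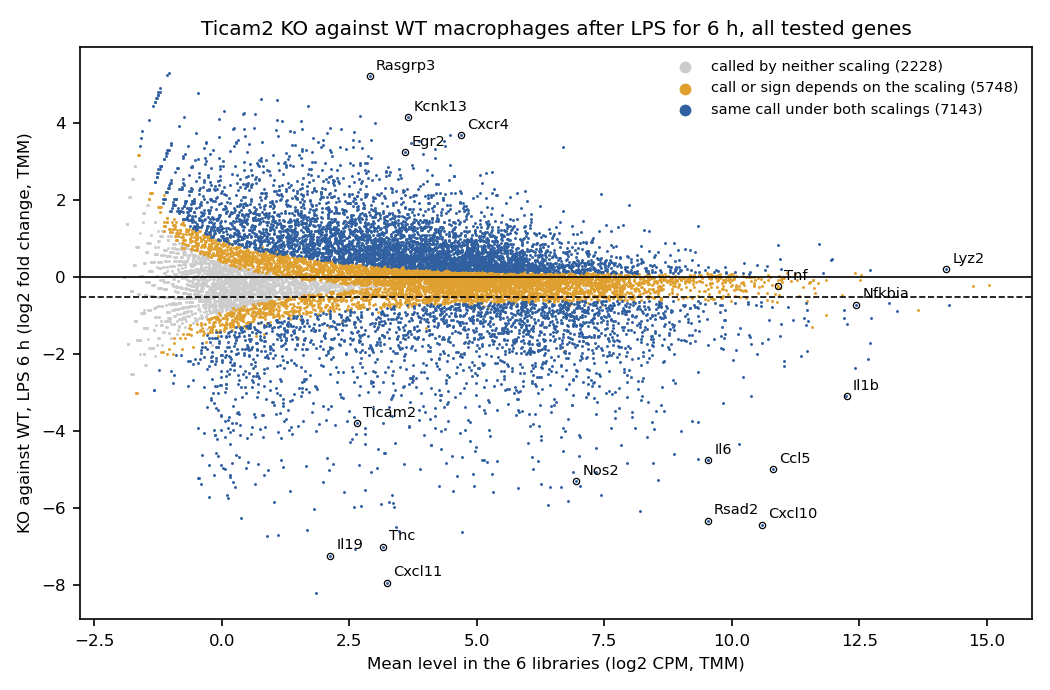
Mean level of each of 15119 tested genes in the 6 libraries (x axis, log2 CPM) against the KO minus WT difference after LPS 6 h (y axis, log2 fold change by TMM). The solid line is no difference by TMM and the dashed line, 0.52 lower, no difference of the median gene by total counts. The genes farthest below both lines include Cxcl11, Il19, Tnc, Cxcl10 and Rsad2, and Tnf lies between the lines.

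Many large differences were called under both scalings. Both scalings called 1118 genes at least 2-fold lower in KO (7.39%) and 1802 at least 2-fold higher (11.9%). At 4-fold the numbers were 473 (3.13%) and 480 (3.17%), and at 16-fold they were 106 (0.701%) and 29 (0.192%). The 10 largest falls among genes with non-overlapping groups, an established symbol and a mean of at least 2 in log2 CPM over the 6 libraries were Cxcl11, Il19, Trim30c, Tnc, Iigp1, Cxcl9, Tnfsf10, Cxcl10, Rsad2 and Cmpk2, from -7.95 to -6.09. They hold 3 chemokines that bind the receptor CXCR3 (Cxcl9, Cxcl10 and Cxcl11), antiviral enzymes (Rsad2, Cmpk2), an immunity-related GTPase (Iigp1), a death ligand (Tnfsf10, TRAIL), an interleukin 10 family cytokine (Il19) and a matrix glycoprotein (Tnc, tenascin C). The 10 largest rises by the same limits were Rasgrp3, Arhgap19, Kcnk13, Slc5a3, Nanos1, E2f2, Nav2, Fbxo5, Cxcr4 and Cd28, from 5.22 to 3.68.

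The genes lower in KO held a large share of the WT counts after LPS. The 150 genes over 16-fold lower in KO took 5.71% ± 0.048 of WT counts (SD, n = 3) and 0.244% ± 0.0021 of KO counts. In untreated cells the same genes took 0.209% ± 0.0027 in WT and 0.146% ± 0.0012 in KO. Those 4 to 16-fold lower took 10.7% ± 0.12 in WT and 2.50% ± 0.013 in KO, and those 2 to 4-fold lower took 15.9% ± 0.31 and 8.65% ± 0.19. Genes within 2-fold of each other took 66.7% ± 0.32 of WT counts and 85.2% ± 0.28 of KO counts, against 88.1% ± 0.19 and 88.6% ± 0.061 in untreated cells. The fold classes come from these same libraries, so the shares describe the size of the shift and test nothing. With this shift, TMM factors were 0.691 to 0.710 in the WT and 0.987 to 1.035 in the KO libraries. Among protein-coding genes 1842 of 11985 were lower and 4546 higher under both scalings, and among long non-coding RNAs 99 of 744 were lower and 176 higher.

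**Figure D2:**
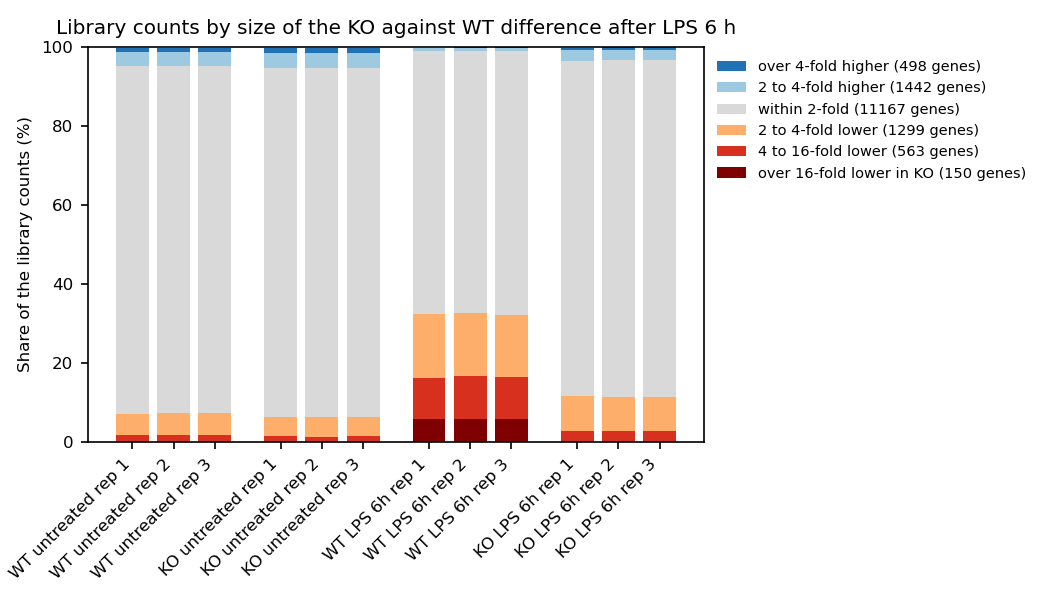
Share of each library's counts (y axis, %) held by genes in 6 classes of KO against WT difference after LPS 6 h by TMM, for 12 libraries (x axis). Genes within 2-fold (grey) took 66.7% of counts in WT with LPS and 85.2% to 88.6% in the other groups shown.

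The signalling proteins of the receptor itself differed less. Of the list of the TLR4 receptor complex and its adaptors, 13 of 18 tested members were lower in KO and 4 higher by TMM, with 9 lower and 8 higher by total counts, and Ticam2, the deleted gene, is counted among those lower. Cd14, the LPS co-receptor, was lower (-1.22 ± 0.041 by TMM and -0.69 by total counts), as were Myd88 (-1.64 ± 0.047 by TMM and -1.12 by total counts), the kinase Irak2 (-1.34 ± 0.043 by TMM and -0.82 by total counts) and Tank, a regulator of the kinase that phosphorylates IRF3 (-1.24 ± 0.045 by TMM and -0.72 by total counts). Traf3, a ubiquitin ligase of the TRIF arm, was higher in KO (0.86 ± 0.10 by TMM and 1.38 by total counts), and so was the kinase Irak1 (0.53 ± 0.061 by TMM and 1.06 by total counts). Tollip, an inhibitor of the pathway, did not pass the test by TMM (0.017 ± 0.054 by TMM and 0.54 by total counts).

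The direct IRF3 targets and type I interferon were lower in KO without exception among those tested. Of the list IRF3 direct targets and type I interferon, 12 of 12 tested members were lower and 0 higher under both scalings, with a median difference of -4.92 by TMM and -4.39 by total counts. Cxcl10 had 13884, 14534 and 14928 CPM in WT and 162, 168 and 171 CPM in KO. All KO libraries were far below all WT libraries (-6.44 ± 0.046 by TMM and -5.91 by total counts) and above untreated KO cells, which had 57.1 ± 0.861 CPM (mean ± SD, n = 3, here and below for other groups). Ccl5, which encodes RANTES, had 9388, 10346 and 10802 CPM in WT and 299, 329 and 329 CPM in KO (-5.00 ± 0.049 by TMM and -4.47 by total counts). Rsad2 had 6811, 6598 and 6443 CPM in WT and 84.5, 78.8 and 83.1 CPM in KO (-6.33 ± 0.052 by TMM and -5.81 by total counts). The groups did not overlap for either gene, and Rsad2 in KO with LPS stood at the level of untreated WT cells, 85.6 ± 2.005 CPM. That level belongs to the other genotype and does not show whether Rsad2 rose with LPS within KO cells. Ifit1 had 2303, 2406 and 2205 CPM in WT and 94.7, 92.5 and 96.4 CPM in KO, against 55.9 ± 2.46 CPM in untreated KO cells (-4.61 ± 0.045 by TMM and -4.08 by total counts). Ifnb1, the interferon beta gene that feeds the second wave, was a gene of few counts. It had 7.07, 7.72 and 9.57 CPM in WT and 0.411, 0.557 and 0.525 CPM in KO, from 58, 66 and 85 counts in WT and 5, 7 and 7 counts in KO (-3.99 ± 0.24 by TMM and -3.47 by total counts), and the groups did not overlap.

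**Figure D3:**
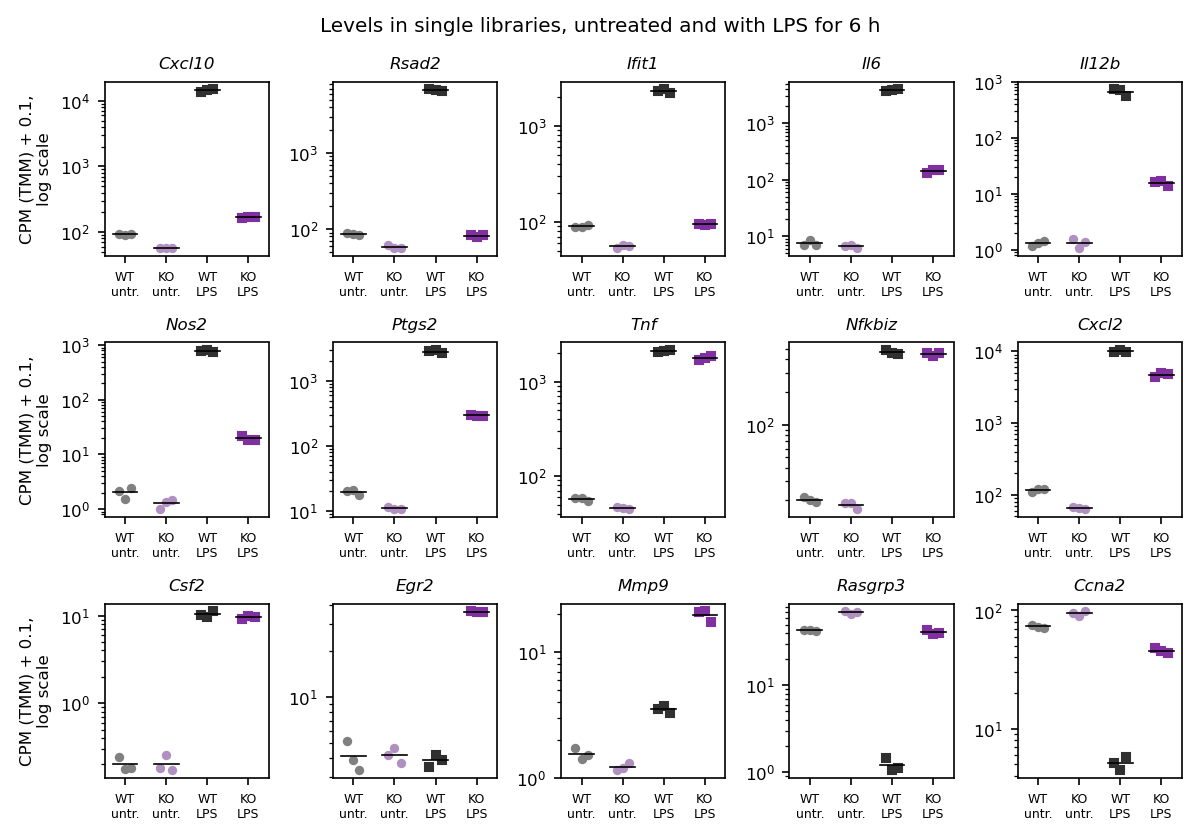
Level of 15 genes in single libraries (points, CPM by TMM plus 0.1, log axis) of WT and KO cells, untreated and after LPS 6 h, with the mean of 3 libraries as a bar. Rsad2 and Ifit1 in KO with LPS lie near the untreated WT level, and Ifit1 lies above untreated KO. Cxcl10 in KO with LPS lies above both untreated groups and far below WT with LPS. Tnf and Nfkbiz in KO with LPS lie near the WT level with LPS. Egr2 and Mmp9 in KO with LPS lie above every other group, and Rasgrp3 and Ccna2 are lowest in WT with LPS.

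The transcription factors that read the interferon signal were lower as well. In the list IRF and STAT transcription factors, 14 of 18 tested members were lower and 4 higher by TMM, and 13 lower and 4 higher by total counts, with a median difference of -1.36 by TMM and -0.84 by total counts. Stat2 (-3.08), Stat3 (-2.72) and Irf7, the amplifier of interferon transcription (-3.21), were among those lower. Stat2 had 372, 334 and 326 CPM in WT and 43.01, 37.7 and 41.5 CPM in KO, with KO below the untreated WT level of 66.6 ± 4.999 CPM. Higher were Stat6, which carries the interleukin 4 signal (0.74), and Irf3 itself (0.35).

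Interferon-stimulated effectors were lower in nearly all members. By TMM 36 of 37 tested members of the list Antiviral effectors induced by interferon were lower and 1 higher, by total counts 35 and 2, and the median difference was -2.69 by TMM and -2.16 by total counts. Cmpk2, a mitochondrial nucleotide kinase, had 2386, 2510.1 and 2383 CPM in WT and 36.9, 35.2 and 34.5 CPM in KO (-6.09 ± 0.057 by TMM and -5.57 by total counts), and Mx1, a dynamin-like GTPase against influenza viruses, had 607, 569 and 531 CPM in WT and 12.2, 13.2 and 13.1 CPM in KO (-5.47 ± 0.067 by TMM and -4.95 by total counts). For both, KO with LPS lay near the untreated KO mean (38.8 ± 3.003 CPM for Cmpk2 and 9.37 ± 0.114 CPM for Mx1), and the groups did not overlap. Usp18, which removes ISG15 and dampens the interferon receptor, differed by -3.51 and Ifih1, the RNA sensor MDA5, by -4.11. Ifi27, the exception, was higher in KO (0.28 ± 0.059 by TMM and 0.81 by total counts). Of the PARP genes, which transfer ADP-ribose, 9 of 9 tested members were lower in KO and 0 higher under both scalings, with Tiparp at -2.83, Parp12 at -2.79, Parp14 at -2.57 and Parp9 at -2.41.

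Multigene families of the interferon response were lower as whole lists by TMM. In the list Schlafen and PYHIN genes, 18 of 18 tested members were lower and 0 higher by TMM, and 17 lower and 0 higher by total counts, with a median difference of -3.63 by TMM and -3.10 by total counts. The PYHIN genes Ifi204 (-3.96), Ifi205 (-4.83), Ifi209 (-5.08) and Mndal (-3.76), relatives of DNA sensors on chromosome 1, had the smallest p-values. Of the list Guanylate-binding proteins and IRG GTPases, 17 of 17 tested members were lower and 0 higher under both scalings, with a median difference of -4.41 by TMM and -3.89 by total counts. Gbp2, whose product coats vacuoles that hold pathogens, had 953, 1074 and 1062 CPM in WT and 51.5, 50.1 and 47.7 CPM in KO (-4.37 ± 0.055 by TMM and -3.85 by total counts). Gbp3 (-5.39), Ifi47 (-4.17) and Iigp1 (-6.62) were also lower, the last with 252, 267 and 230.1 CPM in WT and 3.21, 2.07 and 2.32 CPM in KO. Counts within these families, as within H2 and Bcl2a1 below, can be split between near-identical copies, which makes single members uncertain.

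Cytokine genes were lower by TMM in all tested members but Csf2. By TMM 20 of 21 tested members of the list Interleukins and colony-stimulating factors were lower and 0 higher, by total counts 19 and 1, and the median difference was -3.37 by TMM and -2.85 by total counts. Il6 had 3705, 3949 and 3969 CPM in WT and 131, 148 and 149 CPM in KO (-4.77 ± 0.051 by TMM and -4.24 by total counts). Il12b, the shared subunit of interleukins 12 and 23, had 731, 715 and 554 CPM in WT and 15.9, 16.5 and 13.3 CPM in KO (-5.45 ± 0.10 by TMM and -4.93 by total counts). Il10, an anti-inflammatory cytokine, had 111, 108 and 112 CPM in WT and 4.11, 3.74 and 3.597 CPM in KO (-4.85 ± 0.087 by TMM and -4.33 by total counts). In none of these 3 genes did the groups overlap, yet all KO libraries were above the untreated KO mean, 6.46 ± 0.441 CPM for Il6, 1.23 ± 0.254 CPM for Il12b and 1.61 ± 0.268 CPM for Il10. Il1b, the precursor of interleukin 1 beta, differed less, with 13969.8, 14694 and 14259 CPM in WT and 1591, 1649.6 and 1759.9 CPM in KO (-3.10 ± 0.041 by TMM and -2.58 by total counts). Il1a (-4.34), the interleukin 1 receptor antagonist Il1rn (-4.72) and Il27 (-5.67) were lower too. Csf2, which encodes GM-CSF, was the member not called by TMM and was higher by total counts. It had 9.998, 9.597 and 11.03 CPM in WT and 9.05, 9.79 and 9.52 CPM in KO, overlapping ranges, against 0.103 ± 0.0478 CPM in untreated KO cells (-0.11 ± 0.12 by TMM and 0.41 by total counts).

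Chemokine genes were mostly lower. In the list CXC and CC chemokines, 16 of 18 tested members were lower and 0 higher by TMM, and 15 lower and 2 higher by total counts, with a median difference of -2.21 by TMM and -1.69 by total counts. Cxcl11 had 119, 122 and 121 CPM in WT and 0.576, 0.398 and 0.45 CPM in KO, the KO values resting on 7, 5 and 6 counts (-7.95 ± 0.14 by TMM and -7.43 by total counts). Cxcl9 (-6.61) is a fellow CXCR3 ligand. The monocyte attractants Ccl12 (-4.52) and Ccl7 (-3.10) were lower, as was Ccl17 (-3.39), a ligand of CCR4. The neutrophil attractants differed less. Cxcl2 had 9873, 10309 and 9744 CPM in WT and 4419, 4923 and 4777 CPM in KO, a fall with no overlap between the groups (-1.08 ± 0.041 by TMM and -0.56 by total counts), and Cxcl1 had 884, 907 and 946 CPM in WT and 270.4, 322 and 289 CPM in KO (-1.63 ± 0.049 by TMM and -1.11 by total counts). Cxcl5, also a neutrophil attractant, did not pass the test by TMM and was higher by total counts (0.48 ± 0.28 by TMM and 1.00 by total counts). Of chemoattractant receptors, 8 of 14 tested members were lower in KO and 5 higher by TMM, with 8 lower and 6 higher by total counts, and without WT replicate 1 or WT replicate 3 the number higher by TMM was 3. Ccrl2 (-3.34) and the formyl peptide receptors Fpr2 (-2.47) and Fpr1 (-1.33) were lower, while the CXCL12 receptor Cxcr4 (3.68) and the fractalkine receptor Cx3cr1 (2.18) were higher.

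Tnf was among the least affected of the strongly induced genes. It had 2045, 2130.2 and 2135 CPM in WT and 1674, 1773 and 1856 CPM in KO, against 57.2 ± 2.001 CPM in untreated WT and 45.7 ± 1.59 CPM in untreated KO cells. All KO libraries were below all WT libraries by TMM, by a small margin, and the sign turned with the scale (-0.25 ± 0.037 by TMM and 0.27 by total counts, adjusted p = 3.5e-08 by TMM and 1.1e-10 by total counts). Of the TNF superfamily and its receptors, 12 of 17 tested members were lower in KO and 3 higher by TMM, with 11 lower and 5 higher by total counts. Tnfsf10 (-6.49), Tnfsf15 (-4.53) and the receptor Tnfrsf1b (-1.55) were lower. Tnfsf9, the ligand of the T cell co-stimulator 4-1BB, went the other way, with 128, 129 and 139 CPM in WT and 462, 491 and 485 CPM in KO (1.86 ± 0.048 by TMM and 2.38 by total counts), and KO with LPS exceeded every WT library.

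Feedback inhibitors of the NF-kB pathway were mostly lower, by smaller factors. Of the NF-kB genes, which are its subunits and feedback inhibitors, 16 of 19 tested members were lower in KO and 2 higher by TMM, with 15 lower and 3 higher by total counts, with a median difference of -0.99 by TMM and -0.47 by total counts. Nfkbia, the gene of the inhibitor I kappa B alpha, had 6903, 7377 and 7155 CPM in WT and 4076, 4421 and 4469 CPM in KO, with no overlap (-0.73 ± 0.037 by TMM and -0.20 by total counts). Nfkb2 (-2.07), Bcl3 (-1.86), the RNA-destabilising Zfp36 (-1.87) and Tnip3 (-1.62) had the smallest p-values. Nfkbiz, a nuclear co-activator needed for a subset of late genes that includes Il6 and Il12b, had 484, 455 and 453 CPM in WT and 462, 429.9 and 457 CPM in KO. Its groups overlapped, it was not called by TMM, and it was higher by total counts (-0.046 ± 0.045 by TMM and 0.48 by total counts). Without WT replicate 2 it was called lower by TMM (-0.11). Nfkbid (0.31) and Zc3h12c (0.41) were higher in KO.

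Of cytokine receptors and SOCS genes, the inhibitors of JAK-STAT signalling, 17 of 22 tested members were lower in KO and 4 higher by TMM, with 13 lower and 7 higher by total counts. Socs1 (-3.56) and Socs3 (-1.91) were lower, as were Il15ra (-5.43) and Il4ra (-2.72). The interleukin 6 receptor Il6ra (1.57) and the interferon gamma receptor Ifngr1 (0.78) were higher. Both of these were lower in WT with LPS than in untreated WT cells, at 17.2 ± 2.96 CPM against 75.7 ± 2.85 CPM for Il6ra and 129 ± 7.92 CPM against 244 ± 13.5 CPM for Ifngr1.

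Immediate early transcription factors divided. By TMM 18 of 26 tested members of the list AP-1, EGR and ATF transcription factors were lower and 8 higher, by total counts 12 and 10, and the median difference was -0.68 by TMM and -0.16 by total counts. Nr4a3, an orphan nuclear receptor, had 34.99, 43.1 and 41.9 CPM in WT and 0.987, 1.43 and 1.12 CPM in KO (-5.06 ± 0.13 by TMM and -4.54 by total counts), and Ier2 (-2.03), Ier3 (-2.03) and the AP-1 subunit Fosl2 (-1.82) were also lower. Egr2, a zinc finger factor linked to M-CSF signalling in macrophages, had 3.41, 4.096 and 3.83 CPM in WT and 36.1, 35.7 and 35.9 CPM in KO, every KO library above every WT library and above untreated KO cells at 4.105 ± 0.485 CPM (3.24 ± 0.12 by TMM and 3.76 by total counts). Myc, which drives growth, had 13.8, 14.7 and 16.1 CPM in WT and 58.3, 61.5 and 64.7 CPM in KO (2.05 ± 0.076 by TMM and 2.57 by total counts), again without overlap, and the WT libraries lay below their untreated level of 28.5 ± 1.58 CPM. Of the DUSP and Sprouty inhibitors of MAP kinases, 9 of 15 tested members were lower in KO and 4 higher by TMM, with 6 lower and 5 higher by total counts. Dusp1, the phosphatase that ends p38 and JNK activity, had 1058, 1054 and 1100.0 CPM in WT and 134, 155 and 151 CPM in KO (-2.87 ± 0.045 by TMM and -2.34 by total counts), and Dusp2 (-2.60) and Dusp16 (-1.96) were lower, while Dusp4 (1.30) and Spred2 (1.24) were higher.

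Among the 306 genes that rose at least 8-fold in WT cells with LPS and were well detected, the 10 with the least genotype difference by TMM were Nfkbiz, Prdm1, Gem, Ppfia3, Tnf, Phlda1, Maff, Lox and the ferritin pseudogenes Fth-ps2 and Fth-ps3. They were chosen for this and are given as a description. Prdm1, which encodes the repressor BLIMP1, had 33.5, 33.2 and 33.8 CPM in WT and 37.2, 31.1 and 31.4 CPM in KO and overlapping groups, and Gem, a small GTPase, had 14.4, 15.3 and 16.6 CPM in WT and 16.5, 17.3 and 15.1 CPM in KO. Maff, a small MAF factor, was higher in KO (0.44 ± 0.076 by TMM and 0.96 by total counts), and so was Lox, the collagen cross-linking enzyme lysyl oxidase (0.46 ± 0.056 by TMM and 0.98 by total counts). Phlda1 differed by -0.27 ± 0.053 by TMM and 0.25 by total counts and so changed sign with the scale. The counts of Fth-ps2 (-0.27 ± 0.051 by TMM and 0.25 by total counts) and Fth-ps3 (-0.25 ± 0.056 by TMM and 0.28 by total counts) are uncertain, since the pseudogenes share sequence with Fth1.

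A set of 45 genes stood at least 2-fold above WT under both scalings and at least 2-fold above untreated KO cells. Its members include Asb2, Egr2, Depp1, Gm20658, Mmp9, Gm38357 and 2 IDs without a symbol. Mmp9, the secreted gelatinase, had 3.41, 3.63 and 3.15 CPM in WT and 20.9, 20.9 and 17.2 CPM in KO (2.53 ± 0.15 by TMM and 3.05 by total counts), against 1.12 ± 0.0801 CPM in untreated KO cells. Asb2, a substrate adaptor of a ubiquitin ligase, had 0.244, 0.117 and 0 CPM in WT and 2.55, 2.39 and 2.85 CPM in KO, from 2, 1 and 0 counts in WT and 31, 30 and 38 counts in KO, and Depp1 had 0.244, 0 and 0.113 CPM in WT and 0.905, 1.03 and 1.27 CPM in KO, from 2, 0 and 1 counts in WT and 11, 13 and 17 counts in KO. In each of the 3 genes all KO libraries were above all WT libraries, but the WT counts of Asb2 and Depp1 are at or under the 3-count limit, so no fold is given for them.

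Genes of antimicrobial metabolism were mostly lower. Of the genes of nitric oxide, arginine and tryptophan metabolism, 9 of 11 tested members were lower in KO and 2 higher by TMM, with 8 lower and 2 higher by total counts. Nos2, the inducible nitric oxide synthase, had 775, 797 and 749.6 CPM in WT and 21.4, 18.5 and 18.5 CPM in KO, with no overlap and KO with LPS above untreated KO cells at 1.17 ± 0.246 CPM (-5.32 ± 0.063 by TMM and -4.79 by total counts). The arginine transporter Slc7a2 (-3.67), Gch1, which makes the synthase's cofactor (-2.12), and Ass1, which recycles citrulline (-1.99), were lower. Spr, of the same cofactor's synthesis, was higher (0.82). Without WT replicate 2 or 3, or KO replicate 2, 1 member was called higher. Acod1, which makes itaconate, had 4369, 4552 and 4388 CPM in WT and 972, 948 and 986 CPM in KO (-2.20 ± 0.04 by TMM and -1.67 by total counts). In the itaconate and TCA cycle list as a whole the scale decided: 4 of 23 tested members were lower in KO and 10 higher by TMM, with 1 lower and 22 higher by total counts. Idh1 (0.91) and Aco1 (0.80) were higher under both scalings, while Mdh2 had 221, 235 and 229.6 CPM in WT and 214, 225 and 245 CPM in KO, overlapping by TMM (-0.0041 ± 0.045 by TMM and 0.52 by total counts).

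Glycolysis genes were divided. In the list Glycolysis, glucose uptake and hypoxia, 17 of 26 tested members were lower and 6 higher by TMM, and 8 lower and 14 higher by total counts, with a median difference of -0.38 by TMM and 0.14 by total counts. Pfkfb3, which makes the activator of phosphofructokinase, had 317, 339 and 303 CPM in WT and 18.01, 17.2 and 18.7 CPM in KO (-4.15 ± 0.069 by TMM and -3.63 by total counts). The transporter Slc2a6 (-2.20), hexokinase Hk2 (-1.96) and Hif1a (-1.48) were lower, and Pfkfb4 (1.59) and Gpi1 (0.36) were higher. The core enzyme Gapdh did not pass the test by TMM (-0.0011 ± 0.042 by TMM and 0.52 by total counts), and neither did Aldoa (0.0043 ± 0.043 by TMM and 0.53 by total counts), and by total counts both were higher. Without WT replicate 1 Gapdh was called lower by TMM (-0.11). In the prostaglandin and leukotriene list, 9 of 18 tested members were lower in KO and 9 higher by TMM, with 5 lower and 12 higher by total counts. Ptgs2, cyclooxygenase 2, had 2857, 2961 and 2719.6 CPM in WT and 302, 289.6 and 292 CPM in KO (-3.27 ± 0.043 by TMM and -2.75 by total counts), and prostaglandin E synthase Ptges was lower (-1.92). The enzyme that degrades prostaglandins, Hpgd, was higher (2.57 ± 0.12 by TMM and 3.09 by total counts), at 27.1 ± 1.56 CPM in KO with LPS and 4.55 ± 0.667 CPM in WT with LPS against 79.9 ± 3.098 CPM and 48.5 ± 2.69 CPM in untreated KO and WT cells, and Hpgds was higher as well (1.13).

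Genes of the antioxidant factor NRF2 were divided, and 9 of 20 tested members were lower in KO and 11 higher by TMM, with 6 lower and 13 higher by total counts. Gclm, of glutathione synthesis, had 146, 148 and 145 CPM in WT and 366, 375 and 382 CPM in KO (1.36 ± 0.039 by TMM and 1.88 by total counts), and Srxn1 (1.23), catalase Cat (0.78) and Hmox1 (0.71) were higher too. Keap1, the repressor of NRF2, was lower (-1.43), as was Sod2 (-1.11), a mitochondrial enzyme also induced through NF-kB. In the iron and metal list, 11 of 16 tested members were lower in KO and 5 higher by TMM, with 8 lower and 7 higher by total counts. Lcn2, which withholds iron from bacteria, differed by -2.77, the zinc importer Slc39a14 by -2.08, metallothionein Mt2 by -3.11 and ceruloplasmin Cp by -3.98. The ferritin light chain Ftl1 (0.85) and the ferrireductase Steap3 (1.85) were higher.

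Antigen presentation through class I was lower throughout. By TMM 21 of 21 tested members of the list MHC class I and immunoproteasome were lower and 0 higher, by total counts 19 and 0, and the median difference was -1.70 by TMM and -1.18 by total counts. Tap1, a subunit of the peptide transporter, had 682, 697 and 724 CPM in WT and 62.7, 61.7 and 64.2 CPM in KO (-3.48 ± 0.046 by TMM and -2.96 by total counts), and KO with LPS was below untreated KO cells, 72.5 ± 1.25 CPM. Tap2 (-2.44), H2-T22 (-2.74) and Nlrc5, the class I transactivator (-3.47), were lower too. For class II, 11 of 14 tested members were lower in KO and 1 higher by TMM, with 6 lower and 3 higher by total counts. H2-Ab1 (-1.42), H2-Aa (-1.23) and the invariant chain Cd74 (-1.18) were lower with LPS, but KO cells were also lower untreated, at 71.1 ± 1.73 CPM against 168 ± 3.04 CPM for H2-Ab1. Of co-stimulatory and checkpoint ligands, 11 of 17 tested members were lower in KO and 6 higher under both scalings. Cd40 had 1298, 1411 and 1378 CPM in WT and 119, 127 and 119.6 CPM in KO (-3.48 ± 0.043 by TMM and -2.96 by total counts), and Cd274, which encodes PD-L1 (-3.64), Cd69 (-3.24) and Slamf7 (-2.38) were lower, while the inhibitory receptor Cd200r1 (1.19) and Vsir (0.66) were higher.

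Genes of lytic cell death were mostly lower. Of the inflammasome and lytic death list, 13 of 17 tested members were lower in KO and 2 higher by TMM, with 11 lower and 4 higher by total counts. The number higher by TMM was 1 without WT replicate 1, WT replicate 3 or KO replicate 2, and 4 without KO replicate 1. Casp4, the sensor of intracellular LPS also known as caspase-11, had 198, 202 and 192 CPM in WT and 37.8, 38.7 and 42.6 CPM in KO (-2.31 ± 0.06 by TMM and -1.79 by total counts), and Casp1 (-1.81) and Mlkl, the executor of necroptosis (-3.00), were lower. Ripk3 was higher (0.55). In the BCL2 family, 11 of 18 tested members were lower in KO and 5 higher by TMM, with 6 lower and 11 higher by total counts. The survival genes Bcl2a1a (-1.82), Bcl2a1b (-1.61) and Bcl2a1d (-1.76) were lower and Bcl2 was higher (2.08 ± 0.19 by TMM and 2.60 by total counts). Of the complement genes, 8 of 12 tested members were lower in KO and 0 higher by TMM, with 3 lower and 5 higher by total counts. Factor B, Cfb, had 74.4, 80.6 and 73.9 CPM in WT and 4.52, 2.86 and 3.597 CPM in KO (-4.38 ± 0.09 by TMM and -3.86 by total counts), and C3 was lower (-1.47).

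Surface receptors and matrix genes differed in both directions. Of scavenger, lectin and Fc receptors, 19 of 30 tested members were lower in KO and 8 higher by TMM, with 12 lower and 14 higher by total counts, and without WT replicate 1 the number higher by TMM was 5. Fcgr1, the high-affinity IgG receptor, had 452, 489 and 471 CPM in WT and 50.8, 52.1 and 55.2 CPM in KO (-3.16 ± 0.055 by TMM and -2.63 by total counts), below untreated KO cells at 89.7 ± 3.09 CPM. Fcgr4 (-3.37), the inhibitory Fcgr2b (-2.18) and Axl (-1.80) were lower, and the lipid receptors Scarb1 (0.88) and Cd36 (0.65) were higher. In the matrix list, 20 of 26 tested members were lower in KO and 4 higher by TMM, with 17 lower and 6 higher by total counts. Tnc had 83.9, 90.5 and 86.2 CPM in WT and 0.493, 0.796 and 0.674 CPM in KO (-7.01 ± 0.13 by TMM and -6.49 by total counts). Mmp13, a collagenase, had 2343, 2515 and 2366 CPM in WT and 178, 171 and 179 CPM in KO (-3.77 ± 0.047 by TMM and -3.25 by total counts), and Ptx3 (-5.43) and Thbs1 (-3.87) were lower. Plau, the urokinase gene, was higher (2.31 ± 0.12 by TMM and 2.83 by total counts). The fibroblast marker sum above was also lower in KO, with Pdgfrb the single called marker, and its part in the matrix results was not tested.

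Several of the largest rises were in genes that untreated cells of 1 or both genotypes also expressed. Rasgrp3, an activator of RAS and RAP1, had 1.34, 0.936 and 1.01 CPM in WT and 43.6, 39.8 and 40.6 CPM in KO, with no overlap (5.22 ± 0.14 by TMM and 5.73 by total counts). Untreated cells had 43.2 ± 0.809 CPM in WT and 70.2 ± 2.17 CPM in KO, so WT with LPS was the group that stood apart. Kcnk13, a potassium channel, had 2.56, 2.57 and 3.38 CPM in WT and 50.3, 50.04 and 52.5 CPM in KO against 54.98 ± 1.81 CPM in untreated KO cells (4.15 ± 0.11 by TMM and 4.67 by total counts). Cxcr4 had 7.803, 6.44 and 6.98 CPM in WT and 87.9, 94.04 and 90.7 CPM in KO (3.68 ± 0.084 by TMM and 4.20 by total counts), and Cd28 5.24, 7.96 and 5.29 CPM in WT and 81.6, 77.5 and 78.98 CPM in KO (3.68 ± 0.09 by TMM and 4.20 by total counts), and again untreated WT cells were high, at 128 ± 3.05 CPM for Cxcr4 and 112 ± 1.17 CPM for Cd28.

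Cell cycle genes were higher in KO as a group. In the list DNA replication and G1/S, 2 of 36 tested members were lower and 32 higher by TMM, and 0 lower and 34 higher by total counts, with a median difference of 1.72 by TMM and 2.24 by total counts. Rrm2, a subunit of ribonucleotide reductase, had 6.46, 5.38 and 6.87 CPM in WT and 63.9, 67.9 and 66.99 CPM in KO (3.40 ± 0.079 by TMM and 3.93 by total counts), below its untreated level in KO, 178 ± 6.02 CPM. Uhrf1 (3.07), Mcm2 (2.41), Mcm7 (1.92) and the activator E2f2 (3.84) were higher. Rfc3 (-0.51 ± 0.094 by TMM and 0.016 by total counts) and Mcm10 (-0.41 ± 0.11 by TMM and 0.11 by total counts) were lower by TMM and passed no test by total counts. By TMM 1 of 30 tested members of the list Mitosis and G2/M were lower and 28 higher, by total counts 1 and 29, and the median difference was 1.99 by TMM and 2.51 by total counts. Ccna2, cyclin A2, had 4.999, 4.33 and 5.63 CPM in WT and 47.9, 45.03 and 43.2 CPM in KO (3.18 ± 0.10 by TMM and 3.70 by total counts), Cdc20 differed by 2.62, Cdkn2c by 2.04 and survivin, Birc5, by 1.84. Cdkn1a, the inhibitor p21, was the member lower in KO and had 2639, 3061 and 3057 CPM in WT and 693, 778 and 689 CPM in KO (-2.02 ± 0.064 by TMM and -1.50 by total counts). For Rrm2 and Ccna2 the groups did not overlap, and untreated WT cells had 146 ± 5.01 CPM and 73.1 ± 2.18 CPM.

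Arhgap19, one of the 10 largest rises named above, is a GTPase-activating protein of mitosis. Its promoter (chr19:41802075-41802334, minus strand, GRCm38.p6, from 250 bases before the start site to 10 after) is shown for the CCAAT boxes, in capitals, that are common in promoters of mitotic genes and bound by NF-Y.
Arhgap19: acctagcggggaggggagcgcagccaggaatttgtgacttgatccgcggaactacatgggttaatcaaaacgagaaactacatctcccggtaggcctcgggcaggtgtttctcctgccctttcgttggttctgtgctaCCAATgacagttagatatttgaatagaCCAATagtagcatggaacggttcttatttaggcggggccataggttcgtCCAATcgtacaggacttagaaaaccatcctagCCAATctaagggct
The window held 4 matches to CCAAT on either strand, the last one crossing the start site from base -4 to 1. Of promoters of the mitosis list, 23 of 30 (76.7%) held at least 1 such match in the 300-base window, against 37.5% of promoters of tested genes. The share was not particular to mitosis, with 19 of 31 (61.3%) for the DNA replication list and 16 of 19 (84.2%) for the cholesterol synthesis list below. The promoters of Rasgrp3, the largest rise, held no CCAAT match, and 1 of them held an ISRE core match from base -55 to -47. Arhgap19 had 1.71, 1.404 and 1.13 CPM in WT and 26.9, 24.8 and 25.3 CPM in KO, with no overlap between the groups, against 38.2 ± 2.19 CPM in untreated WT and 45.6 ± 3.25 CPM in untreated KO cells (4.17 ± 0.15 by TMM and 4.69 by total counts).

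Transcripts of cholesterol synthesis genes, a set known as targets of SREBP2, were also mostly higher in KO. Synthesis itself and SREBP2 activity were not measured. In the list Cholesterol synthesis (SREBP2), 1 of 23 tested members were lower and 21 higher by TMM, and 0 lower and 23 higher by total counts, with a median difference of 0.93 by TMM and 1.45 by total counts. Msmo1, a sterol oxidase, had 17.3, 19.1 and 17.2 CPM in WT and 72.7, 70.97 and 75.8 CPM in KO (2.03 ± 0.065 by TMM and 2.56 by total counts), and the epoxidase Sqle was higher (1.78). The untreated WT level of Msmo1 was 86.5 ± 2.305 CPM, and WT cells with LPS were far below it. Srebf2 itself was lower by TMM and higher by total counts (-0.16 ± 0.059 by TMM and 0.36 by total counts), and by TMM it was not called without KO replicate 2 (-0.14) or KO replicate 3 (-0.10). Ch25h, whose product 25-hydroxycholesterol restrains SREBP2 processing, was lower, with 554, 586 and 592 CPM in WT and 63.5, 69.4 and 74.9 CPM in KO (-3.06 ± 0.049 by TMM and -2.54 by total counts). Of the LXR and cholesterol efflux list, 9 of 18 tested members were lower in KO and 7 higher by TMM, with 5 lower and 11 higher by total counts. The exporter Abca1 (-1.97) and Apoe (-0.81) were lower, and the lysosomal lipase Lipa (0.88) and Nceh1 (1.10) were higher.

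Macrophage lineage regulators were divided. By TMM 12 of 23 tested members of the list Macrophage lineage regulators and identity were lower and 9 higher, by total counts 4 and 13, and the median difference was -0.36 by TMM and 0.16 by total counts. Over all tested genes 30.6% were lower and 32.7% higher by TMM, so the share higher is near that of all genes. Spi1, the lineage factor PU.1, was lower by TMM and not by total counts (-0.56 ± 0.049 by TMM and -0.035 by total counts). Cebpb (-1.16 ± 0.04 by TMM and -0.64 by total counts) and Cebpd (-0.97 ± 0.041 by TMM and -0.44 by total counts) were lower. Nfatc2, a calcium-responsive factor, had 0.975, 0.234 and 0.563 CPM in WT and 14.4, 11.9 and 12.4 CPM in KO (4.42 ± 0.22 by TMM and 4.93 by total counts), and Gas6, a ligand for clearance of dead cells, was higher (1.13). The Nfatc2 value of WT replicate 2 lay under its 3-count floor of 0.351 CPM, so the size of the Nfatc2 fold is uncertain. In the lysosome list, 7 of 26 tested members were lower in KO and 14 higher by TMM, with 1 lower and 22 higher by total counts. Tfeb, the master factor of lysosome genes, had 2.804, 3.28 and 3.15 CPM in WT and 20.9, 18.1 and 19.3 CPM in KO (2.65 ± 0.13 by TMM and 3.17 by total counts), near the untreated KO level of 21.1 ± 1.196 CPM. Ctsd (0.47), Psap (0.27) and Gusb (0.52) were higher and Ctsc (-1.49) lower. Ctsb did not pass the test by TMM (0.045 ± 0.036 by TMM and 0.57 by total counts).

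In housekeeping lists the scale set the answer. Of 34 genes of cytosolic ribosomal proteins, 7 of 34 tested members were lower in KO and 4 higher by TMM, with 0 lower and 34 higher by total counts. Without WT replicate 1 or WT replicate 2 the number lower by TMM was 15 or 12 and the number higher 1, and without KO replicate 1 the number higher was 9. Rplp1 had 3563, 3699.9 and 4016 CPM in WT and 3341, 3723 and 3648 CPM in KO, overlapping groups by TMM (-0.074 ± 0.042 by TMM and 0.45 by total counts), and was called lower by TMM without WT replicate 1 (-0.16) or WT replicate 2 (-0.14). Of nuclear genes of the respiratory chain, 16 of 30 tested members were lower in KO and 3 higher by TMM, with 1 lower and 28 higher by total counts, and of 13 mitochondrially encoded genes, 6 of 13 tested members were lower in KO and 2 higher by TMM, with 0 lower and 9 higher by total counts. By TMM 9 respiratory chain genes were lower without KO replicate 1, and 1 mitochondrially encoded gene was higher without any 1 of the WT libraries or without KO replicate 2. Cycs, cytochrome c, was lower under both scalings (-1.17 ± 0.045 by TMM and -0.64 by total counts). The median difference of the ribosomal list was -0.018 by TMM and 0.50 by total counts, against 0.014 by TMM and 0.54 by total counts over all tested genes. It was -0.11 by TMM and 0.41 by total counts for the respiratory chain list and -0.15 by TMM and 0.37 by total counts for the mitochondrially encoded genes, both below the median gene. The count data alone hold no measure of RNA per cell that would choose between the scalings.

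**Figure D4:**
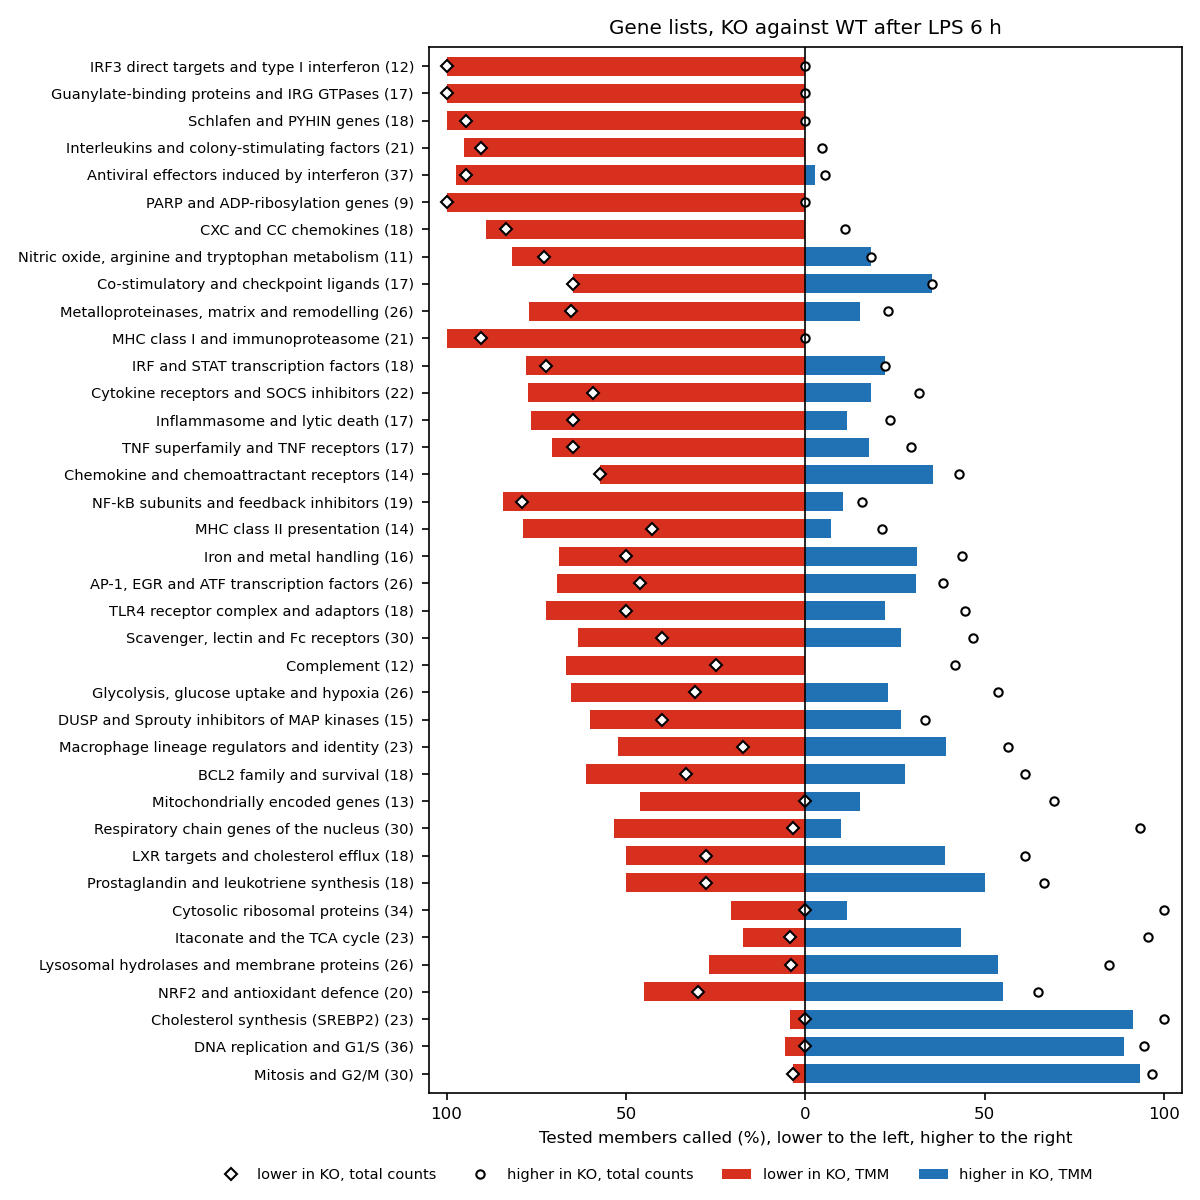
Share of tested members called lower (left, red) or higher (right, blue) in KO with LPS 6 h by TMM, with the same shares by total counts as open symbols, for 38 gene lists (y axis, tested members in brackets), ordered by median difference. Lists at the top and the bottom keep their direction under both scalings, while the symbols of the ribosomal, respiratory chain and TCA cycle lists lie far to the right of the bars.

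Far fewer genes differed before treatment. In untreated cells 2034 genes (13.5%) differed by genotype, and the difference after LPS less that in untreated cells was itself called in 7642 genes (50.5%), 3560 lower (23.5%) and 4082 higher (27%) by TMM. By total counts the numbers were 1647 lower (10.9%) and 8452 higher (55.9%). For Cxcl10 this difference of differences was -5.74 ± 0.061, for Il6 -4.56 ± 0.13 and for Rasgrp3 4.52 ± 0.16, each smaller in size than the genotype difference after LPS. For Tnf it was 0.074 ± 0.061 and not called by TMM (adjusted p = 0.33), and it was 0.58 and called by total counts (adjusted p = 1.4e-13). Rasgrp3 was also higher in untreated KO than in untreated WT cells, as given above. In the genes named next, more of the genotype difference was present without LPS than for Cxcl10, Il6 or Rasgrp3. Mmp14, a membrane-bound metalloproteinase, was lower in KO, at -1.94 ± 0.11 untreated and -1.96 with LPS, and the difference of differences was not called by TMM (-0.016 ± 0.18, adjusted p = 0.96) and was positive by total counts (0.49, adjusted p = 6.8e-04). Id1, an inhibitor of helix-loop-helix factors, was lower, at -1.60 ± 0.066 untreated and -1.55 with LPS, a difference of 0.053 ± 0.088 by TMM that was not called (adjusted p = 0.65) and of 0.56 by total counts (adjusted p = 3.5e-07). Wdfy1, which encodes an endosomal protein linked to TRIF recruitment, was higher in KO in both states, with 10.9, 10.5 and 10.9 CPM in WT and 36.9, 33.7 and 33.2 CPM in KO after LPS (2.07 ± 0.077 untreated and 1.68 with LPS). Rab4a, a small GTPase of recycling endosomes, was higher by 1.91 ± 0.15 untreated and by 3.66 with LPS, and its difference of differences was 1.75 ± 0.36 (adjusted p = 4.5e-05).

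The genotype difference with LTA for 6 h was broad as well, with 8841 genes called (58.5%) by TMM. TLR2, the receptor of LTA, signals mainly through TIRAP and MyD88. The difference with LPS less that with LTA was called in 3425 genes (22.7%), 2043 lower (13.5%) and 1382 higher (9.14%) by TMM, and 1664 lower (11%) and 2304 higher (15.2%) by total counts. The 5 largest differences to the lower side among well-detected genes were in Cxcl11, Zc3h12d, Pou3f1, Adap2 and Ifit1bl1. Cxcl11 differed by -7.95 with LPS and -4.65 ± 0.22 with LTA, a difference of -3.30 ± 0.53 (adjusted p = 1.6e-06). WT cells had 121 ± 1.53 CPM with LPS and 15.3 ± 0.796 CPM with LTA, and KO cells 0.474 ± 0.0914 CPM and 0.592 ± 0.201 CPM, near the floor in both. For Rsad2 the difference between ligands was -1.75 ± 0.064, for Nos2 -1.76 ± 0.094, for Fcgr1 -2.48 ± 0.084 and for Adap2 -2.55 ± 0.42. Il6 differed little between ligands, by 0.26 ± 0.064.

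To the upper side, the largest difference between ligands was in Csf2. In LTA the KO cells had 5.78 ± 0.258 CPM and the WT cells 169 ± 8.23 CPM, a difference of -4.86 ± 0.079, whereas with LPS the genotypes overlapped (-0.11), so the difference between ligands was 4.75 ± 0.15 (adjusted p = 2.1e-31). Ccl17 (2.23 ± 0.15), Cxcl1 (1.91 ± 0.069), Maff (1.87 ± 0.10) and Mmp9 (1.74 ± 0.22) followed. Maff was lower in KO with LTA (-1.43 ± 0.067) and higher with LPS, and Mmp9 was higher in KO with both ligands (0.79 ± 0.13 with LTA). Cxcl1 in KO cells reached 294 ± 25.98 CPM with LPS and 325 ± 3.83 CPM with LTA, against 912 ± 31.4 CPM and 3808 ± 95.5 CPM in WT cells. Tnf differed by -1.20 ± 0.037 with LTA and -0.25 with LPS, a difference of 0.94 ± 0.052 (adjusted p = 1.3e-21). Zc3h12d, a ribonuclease gene, was not called with LPS (-0.011) and was higher in KO with LTA (2.83 ± 0.20).

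**Figure D5:**
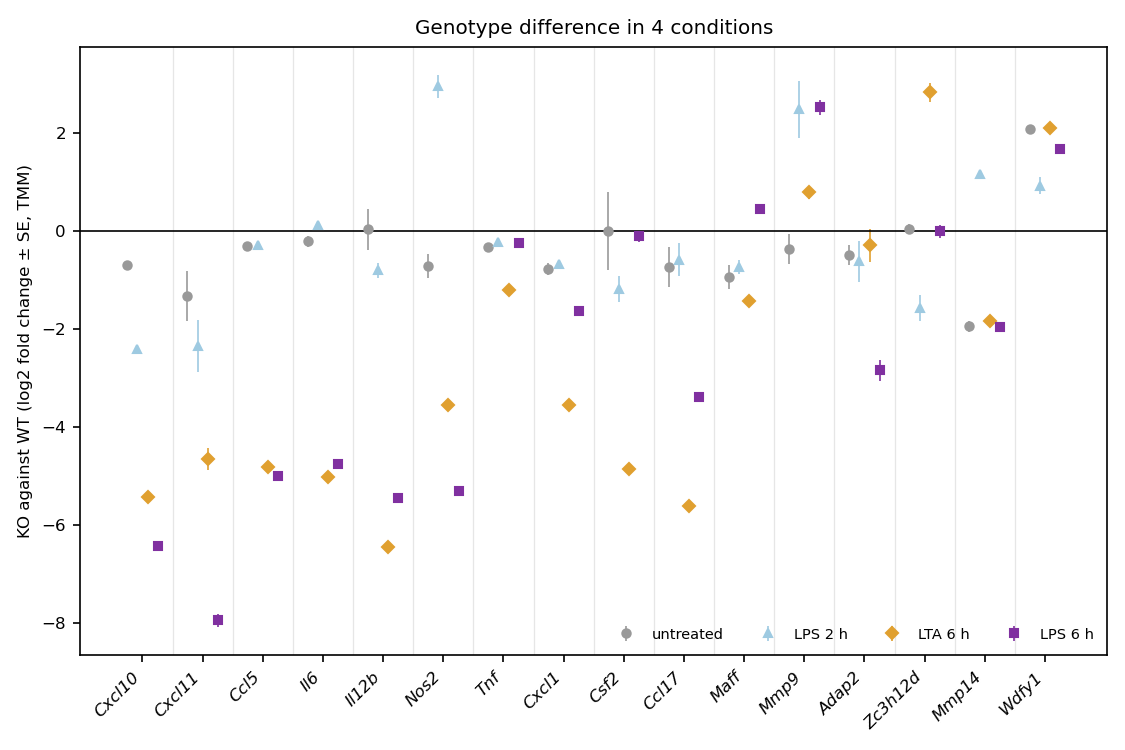
KO against WT difference (y axis, log2 fold change ± SE by TMM, 3 libraries per group) of 16 genes (x axis) in untreated cells, in libraries labelled LPS 2 h, and with LTA for 6 h and LPS for 6 h. Csf2, Cxcl1 and Ccl17 lie lower with LTA than with LPS at 6 h, Cxcl11 and Adap2 lie lower with LPS, and Mmp14 and Wdfy1 are displaced in untreated cells too.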

How the data were processed

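RNA of bone marrow-derived macrophages was sequenced in 30 libraries of 10 groups (3 libraries each), per the labels. The authors deposited 1 table of 32361 gene IDs whose values are estimated counts (expected counts) per gene, per the file headers and values,, in which 25.2% of the values above 0 were not whole numbers. The submitters' processing notes name fastp 0.24.0, STAR 2.7.11, SAMtools 1.22.1, featureCounts, Subread 2.1.1 and the build GRCm38 (mm10), without their order. The sources used here do not name the annotation, the strand setting or the RNA selection, so overlapping and antisense genes may share reads.

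Counts were rounded to whole numbers. Symbols came from GENCODE M21, which named 26304 IDs. The other 6057 held 1.32% to 1.81% of counts in the 6 libraries with LPS for 6 h. Genes were kept by filterByExpr of edgeR 4.0.16 (R 4.3.3, limma 3.58.1; minimum count 10, minimum total 15), scaled by TMM, and tested with edgeR's robust quasi-likelihood test with a coefficient for each of the 10 groups in 1 fit of the 30 libraries, leaving 20 residual degrees of freedom. Adjusted p-values are Benjamini-Hochberg values over the 15119 genes tested, called under 0.05, and a standard error is the log2 fold change over the square root of F. The same fit was made with library totals as the scale. Both scalings are reported because the WT libraries with LPS had lower TMM factors than the KO libraries.

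The labels describe the 3 replicates per group as cells of separate animals, and pairs of replicates differed by more than sampling noise (chi-square of 1.37 to 11.2 per degree of freedom). The 3-count floors cover counting error only, whereas the standard errors and SDs also include the spread between libraries. The libraries labelled 2 h held 1334784 to 2658329 counts and entered the estimate of spread, and the plot of differences by condition. The labels' treatment text names a harvest after 6 h only, so the time of these libraries rests on their labels alone. The comparison and the 38 gene lists (810 genes, 783 tested) were chosen with earlier results of these data known, so the lists are described by counts and medians without a test. From each list up to 4 members with the smallest p in the main direction, up to 2 called the other way and up to 2 of the highest level not called were eligible to be named. Others were named by size of the fold change, where the mean level was 2 or more in log2 CPM, or by the contrasts with untreated and LTA cells. The genes with the least genotype difference among those induced in WT cells, and those above both WT and untreated KO cells, were named by their own size rules, and Ticam2 and 11 cytokine and NF-kB genes were fixed by name. Promoters came from RefSeq on GRCm38.p6. Alternatives were RLE and upper quartile factors, total counts, no filter, DESeq2 1.42.0, fewer libraries in the fit, a replicate block and each library left out. Some list members are not reported here.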

Additional observations from a re-analysis of the deposited data

Results flagged for a closer look

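The genotype difference (KO against WT) differed between conditions by a test of the difference itself, edgeR's quasi-likelihood test of the interaction with adjusted p under 0.05. All values are by TMM on the log2 scale, from 3 libraries per group. Against untreated cells, the difference after LPS for 6 h differed in 7642 genes. Cxcl10 (-5.74) and Il6 (-4.56) lay further below WT with LPS than without it. Rasgrp3 (4.52) and Rab4a (1.75) lay further above WT with LPS than without it.

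Against LTA for 6 h, the difference after LPS differed in 3425 genes. The interferon-stimulated gene Rsad2 (-1.75), the chemokine Cxcl11 (-3.30), Nos2 (-1.76), Fcgr1 (-2.48) and Adap2 (-2.55) differed to the lower side, meaning a lower KO level relative to WT with LPS than with LTA. The cytokine and chemokine genes Csf2 (4.75), Ccl17 (2.23), Cxcl1 (1.91), Tnf (0.94) and Il6 (0.26), the small MAF factor Maff (1.87) and the gelatinase Mmp9 (1.74) differed to the upper side.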

How the results depend on the processing

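Over all genes tested, the counts of called genes moved by over 1.5 times under 1 alternative, library totals as the scale. They then came to 2192 lower and 9268 higher in KO with LPS, to 1647 and 8452 for the difference less that in untreated cells, and to 2304 higher for the difference less that with LTA. Of the 9576 genes called with LPS by TMM, 7143 kept call and sign by total counts and 1002 were called with the opposite sign. Under RLE factors 8960 kept both, under upper quartile factors 8828, without a filter 8908, and with DESeq2 8677, with 0 opposite calls in each. By total counts the sign turned in named genes, to 0.41 for Csf2, 0.25 for Fth-ps2, 0.28 for Fth-ps3, 0.52 for Gapdh, 0.11 for Mcm10, 0.52 for Mdh2, 0.48 for Nfkbiz, 0.25 for Phlda1, 0.51 for Prdm1, 0.016 for Rfc3, 0.45 for Rplp1, 0.36 for Srebf2, 0.27 for Tnf and 0.51 for Zc3h12d with LPS, and to 0.49 for Mmp14 in the difference less that in untreated cells. Under upper quartile factors it turned for Gapdh (0.11) and Mdh2 (0.10). Scaling by total counts moved the median gene up by 0.52 with LPS, which by construction turns small negative values. Counts of list members moved by over 1.5 times under other factors in 6 lists. Under RLE factors 3 chemoattractant receptors and 1 gene of the nitric oxide list were higher, 16 ribosomal genes were lower and 1 higher, and 10 mitochondrially encoded genes were lower and 1 higher. Under upper quartile factors 4 inflammasome genes were higher, 5 respiratory chain genes were lower and 6 higher, and 4 ribosomal genes were lower and 14 higher. With each library left out in turn, 4371 to 4865 genes were lower and 4248 to 4901 higher with LPS, 3333 to 3787 and 3548 to 4060 in the difference less untreated, and 1849 to 2035 and 1237 to 1493 in the difference less LTA. Same-numbered WT and KO libraries with LPS correlated at 0.45, 0.027 and 0.33 in their deviations from group means. The best-matching KO library had the same number for WT replicates 1 and 2, and number 2 for WT replicate 3. The main fit did not take the numbers as pairs, and whether they mark shared handling was not tested. With the replicate block 4638 were lower and 4953 higher with LPS, and this block changed the call of none of 224 named values. A block on animal took the same number within a genotype as 1 animal, which the labels do not state. It was run only for the differences less untreated and less LTA, and changed the call of none of 19. At 11553272 to 13521660 counts per library, genes near 3 counts in a group, such as Asb2 and Depp1 in WT, cannot be given a fold.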
